A study of Sus scrofa with 12 samples.

Results

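The genes followed here are markers of the fibro-adipogenic stroma of skeletal muscle, chosen by name as PDGFRA, PDGFRB, DCN, LUM, THY1, FBN1, FBLN1, DPT, MFAP5 and DLK1. Of these 10 symbols, 9 belonged to an Ensembl gene of the count table that had counts, out of 25880 genes listed, and all 9 passed the filter on low counts that kept 14262 genes. THY1, a cell surface glycoprotein of fibroblasts, matched no identifier by name and is not analysed here. The samples were the Semimembranosus muscle, a large muscle of the ham, of 12 Italian Large White pigs with a live weight of 150 to 160 kg, kept in one environment on one diet. The high intramuscular fat (IMF) group held pigs 1 to 6, aged 234 to 244 days, and the low IMF group pigs 7 to 12, aged 229 to 249 days. Each group had 3 gilts and 3 castrated males (barrows) by the labels. The pigs were chosen by the study from the extremes of a larger population, shared no parent, and were slaughtered on several days.

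Between the fibres of a muscle lies a connective tissue kept up by fibroblasts and by fibro-adipogenic progenitors, mesenchymal cells that carry the receptor PDGFRA on their surface. These cells secrete most of the collagens, proteoglycans and microfibrils around the fibres. After injury, and in fatty infiltration, they can turn into adipocytes, and so they are one known source of the fat cells that lie within a muscle. The question asked of the counts was how much RNA of these genes each pig had, whether the genes varied together over pigs, and whether they differed between high and low IMF.

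Each pig had between 131048805 and 178013997 counts, and levels are given as counts-per-million values (CPM) after TMM normalization, a scaling that sets aside genes with extreme ratios between libraries. The sex in the labels did not match the counts in 6 of the 12 pigs, 2 of high and 4 of low IMF. Labelled gilts 3, 9 and 10 had from 3816 to 5601 counts on the Y chromosome genes EIF1AY and KDM5D together, and labelled barrows 5, 7 and 8 had from 0 to 6. Each group held 3 pigs with such Y chromosome counts, as many as its labelled barrows. An exchange of libraries, within or between groups, and an error in the labels cannot be told apart from these counts, so results are also given without these 6 pigs, which leaves 4 high and 2 low IMF pigs. An exchange between pigs of the same sex would leave no mark in these counts. The pigs left are therefore not shown to be labelled correctly, and leaving out these 6 need not remove every exchanged library. The tissue itself was muscle by its markers. The 8 fibre genes of a list of 15 that carried a name here, ACTA1 and CKM among them, summed to between 39310 and 77900 CPM per pig, and none of them was at 0.

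Together the 9 stromal genes held between 0.0603% and 0.0990% of the counts in each pig. Their summed level ran from 627 CPM in pig 5 to 984 CPM in pig 6, both of high IMF. In the high IMF group it had a median of 875 CPM and a mean of 846, and in the low IMF group, from 769 to 981 CPM, a median of 817 and a mean of 835. The lowest and the highest pig therefore belonged to the same group, and the low IMF pigs lay within the range of the high IMF pigs. In every pig DCN and FBN1 supplied between 75.6% and 81.2% of the sum. In whole tissue, fewer stromal cells and less stromal RNA per cell cannot be told apart.

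**Figure D1:**
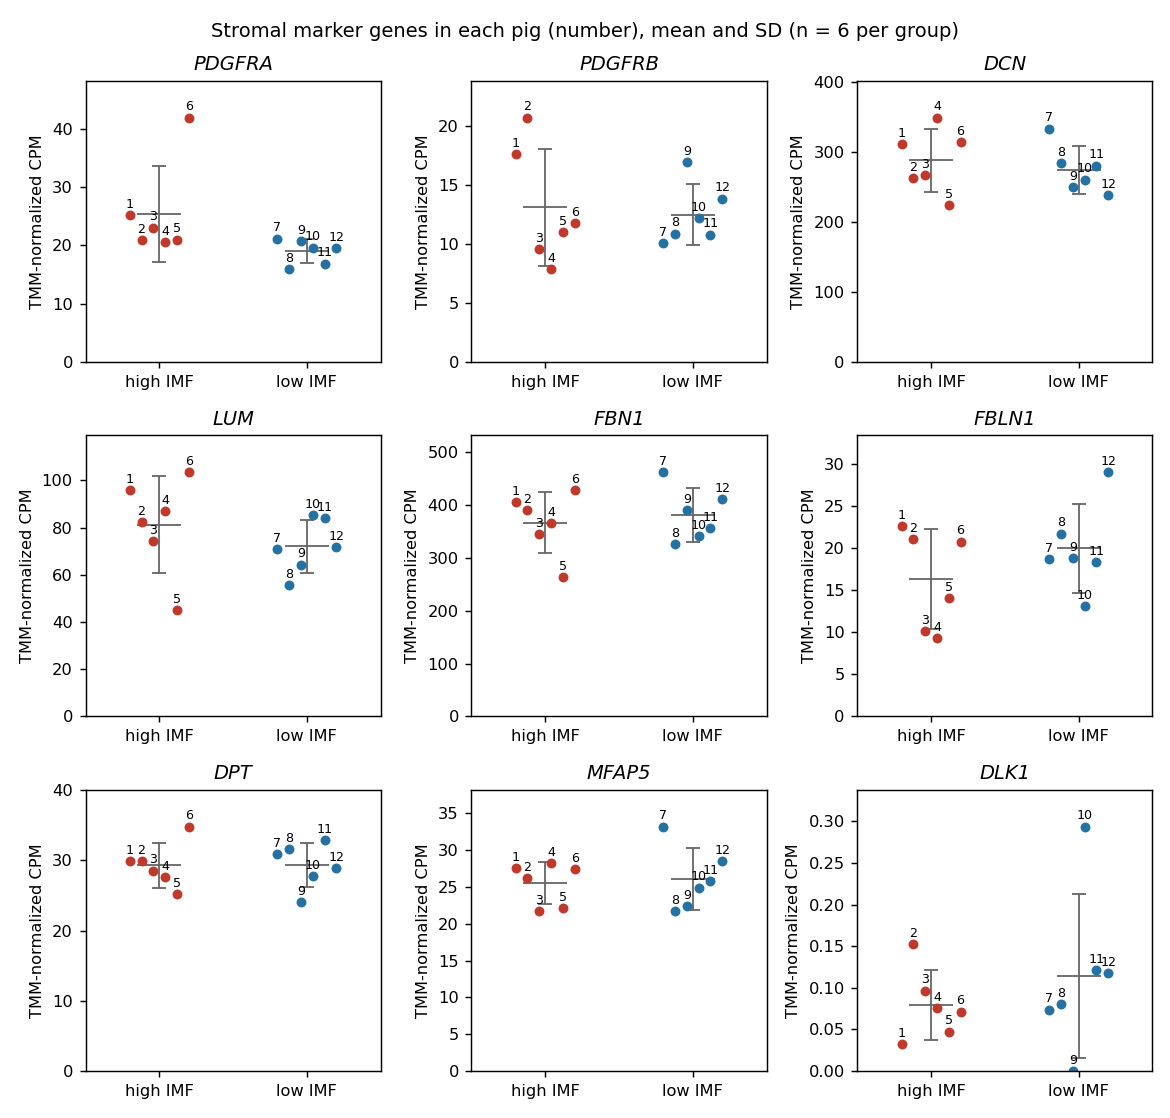
TMM-normalized CPM (vertical axes, each from 0) of the 9 stromal genes in the 6 high IMF and 6 low IMF pigs. Numbers name the pigs, and bars give the mean and SD of each group. The ranges of the groups overlap for every gene, and pig 6 stands above the others for PDGFRA at 41.9 CPM.

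The receptors come first. PDGFRA (ENSSSCG00000008841, chromosome 8 of Sscrofa11.1 from 40966568 to 41021440) encodes the tyrosine kinase receptor that binds platelet-derived growth factors and defines fibro-adipogenic progenitors in sorted muscle cells. PDGFRB (ENSSSCG00000022741, chromosome 2 from 151155753 to 151192818) encodes its relative, which pericytes and vascular smooth muscle cells carry as well as fibroblasts. PDGFRA had 20.6 CPM in the lowest high IMF pig, a median of 22.0 and 41.9 in the highest. In the low IMF group the lowest pig had 16.0 CPM, the median was 19.6 and the highest pig had 21.2. Only pigs 7 and 9 of low IMF reached above the lowest high IMF pig, and pig 6 was far above all others. The log2 fold change (log2FC), low over high IMF, was -0.42 with a standard error of 0.17 (95% interval from -0.79 to -0.06), which is 1.34 times as much in high IMF. The unadjusted p was 0.0271 and the adjusted p over all genes 0.441 in edgeR's quasi-likelihood test (Benjamini-Hochberg), so the difference did not pass the threshold of 0.05. Without pig 6 the log2FC of PDGFRA was -0.22 (unadjusted p = 0.04995). Its unadjusted p was above 0.05 without pig 8 (0.0653), without pig 11 (0.0545), with the labelled age in the model (0.0546) and without the 6 pigs whose Y chromosome counts went against the label (0.112, log2FC -0.57).

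PDGFRB did not follow PDGFRA. It ran from 7.88 to 20.7 CPM in high IMF, with a median of 11.4, and from 10.0 to 17.0 CPM in low IMF, with a median of 11.5. Pigs 2 and 1 were the highest and pigs 4 and 3 the lowest, so high IMF pigs held both ends. The log2FC was -0.07 (standard error 0.22, 95% interval from -0.55 to 0.41), and its sign changed without pig 1 or pig 2. Over the 12 pigs the 2 receptors had a Pearson r of 0.0876 (permutation p = 0.785) and a Spearman rho of 0.0979 (permutation p = 0.765). Per kilobase of exon, PDGFRA exceeded PDGFRB in 11 of the 12 pigs, with a ratio from 0.966 in pig 2 to 3.41 in pig 6.

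The 250 bases before the annotated start of both receptor genes were read from the RefSeq annotation of Sscrofa11.1. They are shown because both match the letters TGANTCA and the genes did not move together. PDGFRA is on the plus strand (chr8:40966318-40966567) and PDGFRB on the minus strand (chr2:151192819-151193068). Capitals mark matches, on either strand, to TGANTCA, to the CCAAT box, or to GGGCGG. The letters GGGCGG are the GC box of the transcription factor Sp1, and the CCAAT box is spelled as it is named. TGANTCA is the AP-1 motif loosened to any base at N, where the AP-1 site itself has C or G. No match overlaps another.
PDGFRA: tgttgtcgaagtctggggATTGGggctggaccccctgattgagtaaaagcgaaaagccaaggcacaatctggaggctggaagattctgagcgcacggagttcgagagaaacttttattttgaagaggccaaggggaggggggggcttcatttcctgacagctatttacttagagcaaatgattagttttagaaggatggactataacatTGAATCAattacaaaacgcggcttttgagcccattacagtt
PDGFRB: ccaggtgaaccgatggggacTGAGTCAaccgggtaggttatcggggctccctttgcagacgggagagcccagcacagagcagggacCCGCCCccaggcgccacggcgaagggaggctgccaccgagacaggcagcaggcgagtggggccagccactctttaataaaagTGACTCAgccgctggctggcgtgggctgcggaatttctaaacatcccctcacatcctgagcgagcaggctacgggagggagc
The letters TGANTCA were found in 5.23% of 19506 such windows and in these 2 of the 9 members. The PDGFRA match, TGAATCA, passes only through the loose N, while the PDGFRB matches are TGAGTCA and TGACTCA. A match of letters is not shown to be a bound site.

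The small leucine-rich proteoglycans DCN (decorin) and LUM (lumican) bind collagen and govern how its fibrils assemble. Their genes are neighbours on chromosome 5, DCN (ENSSSCG00000000915) from 91678601 to 91713925 and LUM (ENSSSCG00000000916) from 91748871 to 91756381, with 34.9 kb between them. DCN had from 224 to 349 CPM in high IMF (median 289.5) and from 238 to 334 CPM in low IMF (median 271). LUM had from 44.9 to 103.5 CPM in high IMF (median 84.6) and from 55.7 to 85.4 CPM in low IMF (median 71.3). High IMF pig 5 was the lowest of all 12 for both genes, and the groups overlapped widely. The log2FC of DCN was -0.07 (standard error 0.12, 95% interval from -0.33 to 0.19) and that of LUM -0.18 (standard error 0.18, 95% interval from -0.55 to 0.20). With single pigs left out, the log2FC of DCN ran from -0.13 without pig 5 to -0.0098 without pig 4. That of LUM was -0.095 without pig 6 and -0.10 without pig 8. Without pig 5 the log2FC of LUM was -0.30 with an unadjusted p of 0.0380, and the adjusted p was 0.547 in edgeR's quasi-likelihood test. Per kilobase of exon, DCN was 4.80 times LUM on average, and the ratio stayed between 3.97 in pig 6 and 6.68 in pig 8.

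FBN1 (fibrillin-1) forms the microfibrils on which elastic fibres are laid, and MFAP5 is a small glycoprotein that sits on those microfibrils. FBN1 (ENSSSCG00000004658) lies on chromosome 1 from 123102011 to 123359649 and MFAP5 (ENSSSCG00000031712) on chromosome 5 from 62742520 to 62757522. FBN1 had from 264 to 429 CPM in high IMF (median 378) and from 327 to 462 CPM in low IMF (median 373.5). MFAP5 had from 21.7 to 28.2 CPM in high IMF (median 26.9) and from 21.7 to 33.2 CPM in low IMF (median 25.4). Low IMF pig 7, whose TMM factor of 0.81 was the lowest of all pigs, was the highest for both after this scaling. Before it, low IMF pig 12 had 70279 counts of FBN1 and 4864 of MFAP5, of 151971914 in all. Pig 7 had 50158 and 3602, of 133915596 in all. The log2FC was 0.06 for FBN1 (standard error 0.13, 95% interval from -0.21 to 0.33). For MFAP5 it was 0.03 (standard error 0.12, 95% interval from -0.22 to 0.28), so that a change of 0.58 in either direction, the size asked of a differentially expressed gene (DEG), lay outside both intervals.

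FBN1 and MFAP5 agreed most closely of all pairs of members, with a Pearson r of 0.754 over 12 pigs (permutation p = 0.0041, adjusted over 36 pairs 0.148) and a Spearman rho of 0.811 (permutation p = 0.00235, adjusted 0.0846). The r was 0.760 within high IMF and 0.815 within low IMF (n = 6 each, exact permutation p = 0.0625 and 0.05). Without pigs 5 and 7, the farthest from the median of FBN1, r was 0.650. The 250 bases before the start of MFAP5 (chr5:62742270-62742519, plus strand) are given as those of a gene in this pair, with capitals for matches on either strand to the CCAAT box or to the letters CATTCC of the TEAD motif.
MFAP5: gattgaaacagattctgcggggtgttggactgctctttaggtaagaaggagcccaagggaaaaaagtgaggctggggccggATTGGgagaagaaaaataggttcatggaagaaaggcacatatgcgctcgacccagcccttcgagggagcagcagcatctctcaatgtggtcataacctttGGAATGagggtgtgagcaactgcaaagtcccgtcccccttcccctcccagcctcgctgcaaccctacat
The GC box letters occurred in 46.0% of all windows and in 4 of the 9 members, the CCAAT letters in 31.9% and in 2 members, and the TEAD letters in 10.2% and in MFAP5 alone of the members. The TATA box letters TATAAA, in 9.76% of all windows, were found in 0 of the 9.

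FBLN1 and DPT are matrix proteins of other kinds. FBLN1 (fibulin-1, ENSSSCG00000000010, chromosome 5 from 3839498 to 3927178) is a glycoprotein of basement membranes and elastic fibres. DPT (dermatopontin, ENSSSCG00000035937, chromosome 4 from 82287657 to 82319380) binds decorin. FBLN1 varied most of the 8 well-measured members, from 9.30 to 22.6 CPM in high IMF (median 17.4) and from 13.2 to 29.1 CPM in low IMF (median 18.8), a range of 3.12 times over all pigs. Pigs 4 and 3 of high IMF were the lowest and pig 12 of low IMF the highest. The log2FC of FBLN1 was 0.29 (standard error 0.24, 95% interval from -0.23 to 0.81), and 0.16 without pig 12. DPT varied least, from 25.2 to 34.8 CPM in high IMF (median 29.2) and from 24.1 to 32.8 CPM in low IMF (median 29.9). Its log2FC was 0.0019 (standard error 0.10, 95% interval from -0.21 to 0.22). An uncharacterized gene, LOC106510102, overlaps DPT on the other strand in RefSeq, and since the strand option of the counting is not given in the sources used here, reads of both cannot be told apart.

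DLK1 (ENSSSCG00000035805, chromosome 7 from 121565844 to 121577493), a transmembrane protein that holds back the maturation of preadipocytes, was barely present. It had between 0 and 48 counts per pig, against at least 1089 for each of the other members in each pig. In high IMF its counts were 5, 24, 14, 11, 6 and 9 in pigs 1 to 6, or from 0.0320 to 0.153 CPM. In low IMF they were 8, 12, 0, 48, 21 and 20 in pigs 7 to 12, or up to 0.294 CPM. The 0 of pig 9 allows up to 3 counts, or 0.0197 CPM, by counting error alone, if each count is independent. The log2FC was 0.53 with a standard error of 0.68, and its 95% interval, from -0.94 to 2.00, leaves large differences either way undetected at this depth. Without pig 10, the highest, the log2FC was -0.01, and in limma-voom it was -0.11.

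**Figure D2:**
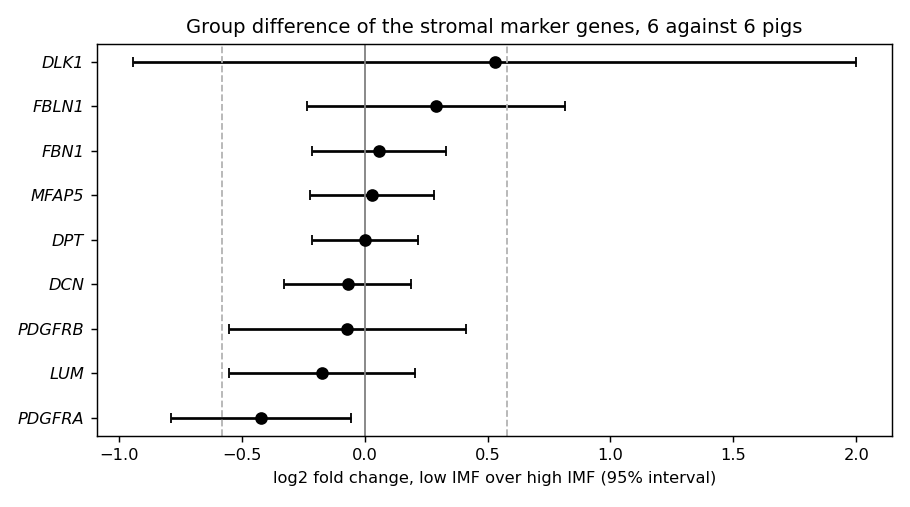
Log2 fold change of the 9 stromal genes, low over high IMF (horizontal axis), with 95% intervals from edgeR's quasi-likelihood fit of 6 against 6 pigs. Dashed lines mark 0.58 in either direction, and PDGFRA, at -0.42, is the single gene whose interval does not hold 0.

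Read together, the comparison of the groups gave no DEG among the members. Over all 14262 genes, edgeR's quasi-likelihood test called 0 DEGs, or 0%. DESeq2's Wald test on all genes with a count called 64 of the 13967 genes to which it gave an adjusted p, or 0.458%. On the genes of the edgeR test it called 57 of 11469 such genes, or 0.497%. Of these DEGs 0 were members, but DLK1 was given no adjusted p in the Wald test on the genes of the edgeR test. An unadjusted p of 0.05 or less was found for 1 of the 9 members, PDGFRA, and for 10.4% of all genes tested (1486 genes), so the members' share was near the background. In direction, 5 members were higher in low IMF and 4 in high IMF, beside 48.4% and 51.6% of all genes. The median log2FC of the members was 0.0019 and that of all genes -0.0083. The groups did not overlap for 0 of the 9 members and for 0.659% of all genes. Without the 6 pigs whose Y chromosome counts went against the label, the log2FC was -0.25 for DCN, -0.23 for LUM, -0.22 for PDGFRB, -0.041 for FBN1, -0.0026 for MFAP5, 0.023 for DPT, 0.37 for FBLN1 and 0.52 for DLK1, with unadjusted p values from 0.184 to 0.985. The summed level was then between 854.5 and 984 CPM in the 4 high IMF pigs and 827 and 842 CPM in the 2 low IMF pigs. The pigs are separate animals, so these tests use the spread between animals.

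Compared per length, the members differed widely in abundance. The exon length of each gene was taken from RefSeq models, which may differ from those of the counting. DCN was the most abundant at 189.7 ± 26.0 CPM per kilobase (SD, n = 12), followed by LUM at 39.5 ± 8.53, FBN1 at 39.3 ± 5.51 and MFAP5 at 25.0 ± 3.37 (SD, n = 12 each). Then came DPT at 16.4 ± 1.70, FBLN1 at 5.39 ± 1.68, PDGFRA at 3.51 ± 1.05, PDGFRB at 2.11 ± 0.629 and DLK1 at 0.0222 ± 0.0171 CPM per kilobase (SD, n = 12 each). LUM and FBN1 could not be ranked, since LUM was above in 7 of 12 pigs. FBLN1 was above PDGFRA in 9 of 12 pigs, with overlapping ranges. The other neighbours in this order kept their rank in at least 11 of 12 pigs. The secreted matrix genes other than FBLN1 stood above both receptors in each of the 12 pigs.

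**Figure D3:**
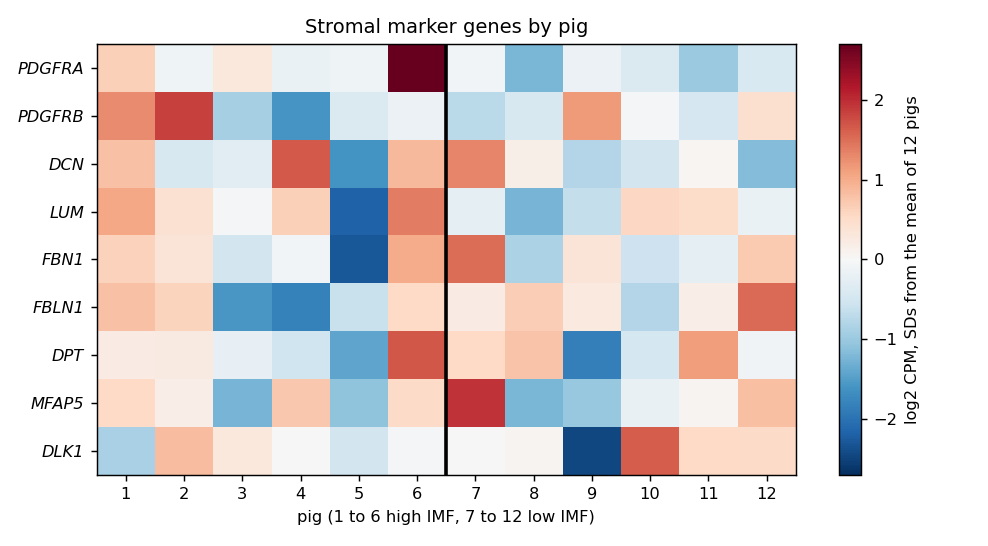
Log2 CPM of the 9 stromal genes (rows) in the 12 pigs (columns, high IMF left of the line), in SDs from the mean of the 12 pigs. Pig 6 is red for most genes and pig 5 blue, both of high IMF.

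Seen by pig, pig 6 was among the 3 highest pigs for 5 of the 9 genes and among the 3 lowest for none. Pig 5 was among the 3 lowest for 6 of the 9 genes and among the 3 highest for none. The mean standardized level of the 8 genes without DLK1 was 1.07 SD units in pig 6, 0.743 in pig 1 and 0.564 in pig 7, and -1.21 in pig 5. The other pigs lay between -0.563 and 0.383. By this measure pigs 5 and 3 of high IMF were the lowest, but with DLK1 included low IMF pig 9 (-0.573) lay below pig 3 (-0.468). By summed CPM, low IMF pigs 7 (981 CPM) and 8 (769 CPM) were the second highest and second lowest. Pigs 6 and 5 were the highest and the lowest by all 3 measures, which share the TMM scaling. By share of counts, without that scaling, pig 1 was the highest (0.0990%) and pig 5 the lowest (0.0603%). Pig 6 then had 0.0947%. Pig 7, whose TMM factor of 0.81 was the lowest of all pigs, had 0.0795%, below pig 8 (0.0837%) and pig 12 (0.0945%).

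The members varied together in part. Of the 36 pairs, 28 had a positive Pearson r over the 12 pigs, with a median of 0.283 (median Spearman rho 0.238), while the median r of the members with all other genes was 0.0069. An unadjusted permutation p of 0.05 or less was found for 5 pairs, and 0 passed after adjustment over the 36 pairs, by r or by rho. With group means removed the median r was 0.331. It was 0.376 within high IMF, where 30 pairs were positive, and 0.105 within low IMF, where 21 were. The median fell to 0.115 when the 2 pigs farthest from the median of the first gene of each pair were left out, and to 0.0445 without the 6 pigs whose Y chromosome counts went against the label. With any 1 pig left out it stayed between 0.246 (without pig 5) and 0.327 (without pig 7), with 25 to 30 pairs positive.

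**Figure D4:**
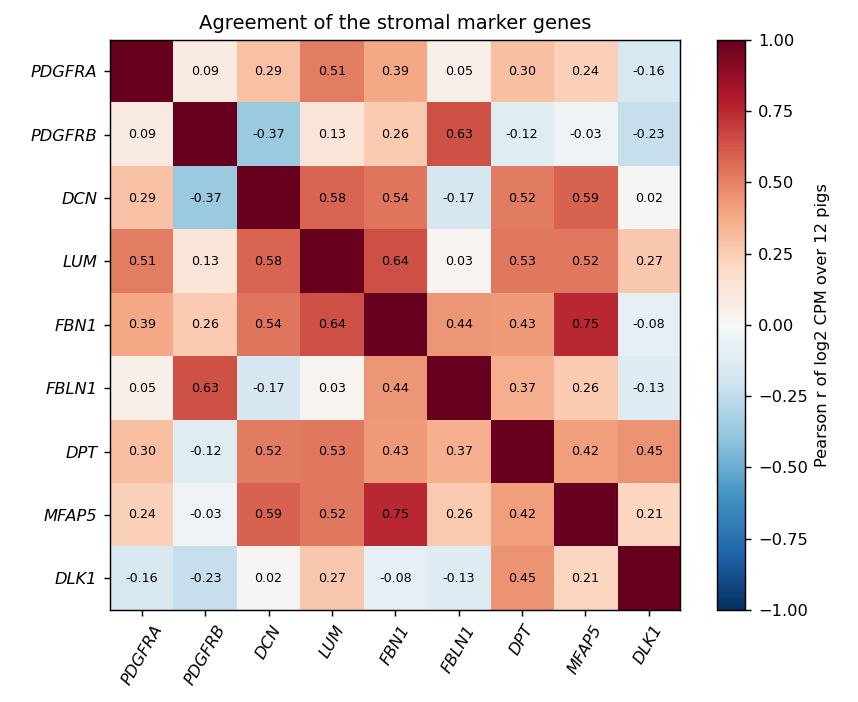
Pearson r of log2 CPM over 12 pigs for each pair of the 9 stromal genes (both axes), from blue at -1 to red at 1. DCN, LUM, FBN1, DPT and MFAP5 form a block of positive values, and PDGFRB is positive chiefly with FBLN1 (0.634).

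By gene, LUM followed the rest best, with a median r of 0.516 with the other 8 members, followed by FBN1 with 0.436, DPT with 0.423 and DCN with 0.405. PDGFRB, with a median r of 0.0266, and DLK1, with -0.0344, followed the rest least. LUM and FBN1 had an r of 0.642 (permutation p = 0.0262, adjusted 0.317; rho 0.385, permutation p = 0.218). Within high IMF that r was 0.983 and within low IMF 0.0428. Over both groups without pigs 5 and 8 it was -0.0287, so the r over both groups depended on those pigs. The r within high IMF does not involve pig 8, a low IMF pig, and was not recalculated without pig 5. Among the other high IMF pigs, pig 3 was the lowest for both genes (LUM 74.4 CPM, FBN1 344.8 CPM). Pig 6 was the highest for both (LUM 103.5 CPM, FBN1 428.9 CPM). DCN and LUM had an r of 0.583 (permutation p = 0.0464, adjusted 0.334; rho 0.525, permutation p = 0.0832), which was 0.327 without pigs 4 and 5. Within high IMF the r of DCN and LUM was 0.839 and within low IMF -0.0804. PDGFRB and FBLN1 had an r of 0.634 (permutation p = 0.0264, adjusted 0.317; rho 0.678, permutation p = 0.0185), which was 0.636 without pigs 1 and 2. The r of PDGFRB and FBLN1 was 0.868 within high IMF but 0.170 within low IMF. PDGFRB and DCN, in contrast, had an r of -0.370 (permutation p = 0.237; rho -0.469, permutation p = 0.127).

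Other genes of this tissue compartment were taken from lists of markers. Of 44 further matrix and fibroblast genes, 41 were tested, 5 were higher in low IMF and 1 in high IMF with an unadjusted p of 0.05 or less, beside 5.38% and 5.04% of all genes, and 0 passed after adjustment. Their median log2FC was 0.21, with 31 of the 41 above 0, beside 48.4% of all genes. Their summed level was 3774 CPM on average in high IMF and 4651 in low IMF. The ranges, from 2837 to 4633 and from 3598 to 5713 CPM, overlapped. COL15A1, a collagen of basement membrane zones, had a median of 118 CPM in high and 143 in low IMF, with a log2FC of 0.28 (standard error 0.10). FMOD, the proteoglycan fibromodulin, had medians of 11.5 and 14.4 CPM and a log2FC of 0.83 (standard error 0.33). SFRP4, a secreted antagonist of Wnt signals, had medians of 11.8 and 16.8 CPM and a log2FC of 0.64 (standard error 0.25). Pig 12 was the highest for all 3 genes. The adjusted p was 0.427 for COL15A1 and 0.441 for the others in edgeR's quasi-likelihood test. COL6A2 was listed at 0 in every pig, while COL6A1 and COL6A3 had counts. Whether the RNA of COL6A2 was absent or went uncounted was not tested.

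The ligands of the PDGF receptors were all measured, and 0 of the 4 had an unadjusted p of 0.05 or less, beside 10.4% of all genes tested. PDGFD had a median of 18.1 CPM in high and 15.5 in low IMF (log2FC -0.21, standard error 0.16). PDGFB had 24.4 and 26.1 CPM (log2FC 0.12, standard error 0.15), PDGFA 7.07 and 7.12 CPM (log2FC -0.08, standard error 0.16) and PDGFC 13.6 and 13.0 CPM (log2FC -0.03, standard error 0.18). Among relatives of DLK1 in Notch signalling, 5 of 8 genes were tested. The ligand DLL1 alone had an unadjusted p of 0.05 or less, with medians of 1.77 and 1.07 CPM and a log2FC of -0.58 (standard error 0.20, adjusted p = 0.427 in edgeR's quasi-likelihood test). The receptor NOTCH3 had a log2FC of 0.47 (standard error 0.26) and the ligand JAG1 0.18 (standard error 0.22). The genes NOTCH1 and JAG2 were listed at 0 in every pig, and whether their RNA was absent or went uncounted was not tested. Of 9 genes of TGF-beta ligands, receptors and binding proteins, all tested, 0 reached an unadjusted p of 0.05. The log2FC was 0.58 (standard error 0.33) for LTBP2, a binding protein of the matrix, 0.27 (standard error 0.17) for the ligand TGFB2 and 0.24 (standard error 0.16) for the receptor TGFBR3.

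Markers of the other cells of the muscle were set beside the stromal genes. Adipocyte markers, 14 of 15 tested, summed to between 469 and 779 CPM in high IMF and between 295 and 926 CPM in low IMF. Their mean sums were 613 CPM in high and 665 CPM in low IMF. The log2FC was above 0 for 8 of the 14 and below 0 for 6, beside 48.4% and 51.6% of all genes, with a median of 0.10. Of the 14, CEBPA alone had an unadjusted p of 0.05 or less. This transcription factor of adipocytes had a log2FC of -0.82 (standard error 0.35) at medians of 0.2775 and 0.184 CPM. The lipases LIPE and LPL had a log2FC of 0.54 (standard error 0.37) and 0.28 (standard error 0.20). Macrophage markers, 10 of 12 tested, summed to between 85.6 and 199.5 CPM in high and between 95.4 and 168 CPM in low IMF. Of them, ITGAM and AIF1 were higher in high IMF with an unadjusted p of 0.05 or less, with a log2FC of -1.06 (standard error 0.35) and -0.46 (standard error 0.20). CD163 had 0.25 (standard error 0.18). ITGAM was highest in pig 5, which was lowest in stromal genes. Pig 6, which was highest for PDGFRA, was also highest for the macrophage sum, and the part of these cells in the PDGFRA value was not tested. Endothelial markers, 9 of 12 tested, summed to between 128 and 174 CPM in high and between 137 and 216 CPM in low IMF, and CDH5 and FLT1 were higher in low IMF at that p, with a log2FC of 0.55 (standard error 0.16) and 0.56 (standard error 0.21). ROBO4 had -0.28 (standard error 0.19). Of the tendon cell markers, 3 of 7 tested, THBS4 was higher in low IMF, with a log2FC of 0.56 (standard error 0.24), while MKX had 0.67 (standard error 0.67) and TNC 0.36 (standard error 0.50). Pericyte and smooth muscle, satellite cell, Schwann cell and fibre markers had 0 genes with such a p, of 12, 7, 5 and 8 tested. Their smallest p values belonged to NOTCH3, MYH11 (log2FC 0.86, standard error 0.53) and DES (0.23, standard error 0.15), to MYF5 (-0.64, standard error 0.36), PAX7 (0.30, standard error 0.20) and CHODL (-0.20, standard error 0.23), to PMP22 (0.12, standard error 0.14), PRX (0.16, standard error 0.21) and SOX10 (0.22, standard error 0.38), and to ACTN3 (0.25, standard error 0.14), ACTA1 (0.29, standard error 0.18) and PYGM (0.25, standard error 0.16). MYH11 had medians of 20.5 CPM in high and 21.5 in low IMF, and its highest pig, pig 12 of low IMF, had 135 CPM. Of all genes tested, 5.38% were higher in low IMF and 5.04% in high IMF with an unadjusted p of 0.05 or less. No gene of these lists passed after adjustment. The endothelial gene EGFL7 was listed at 0 in every pig, and whether its RNA was absent or went uncounted was not tested.

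**Figure D5:**
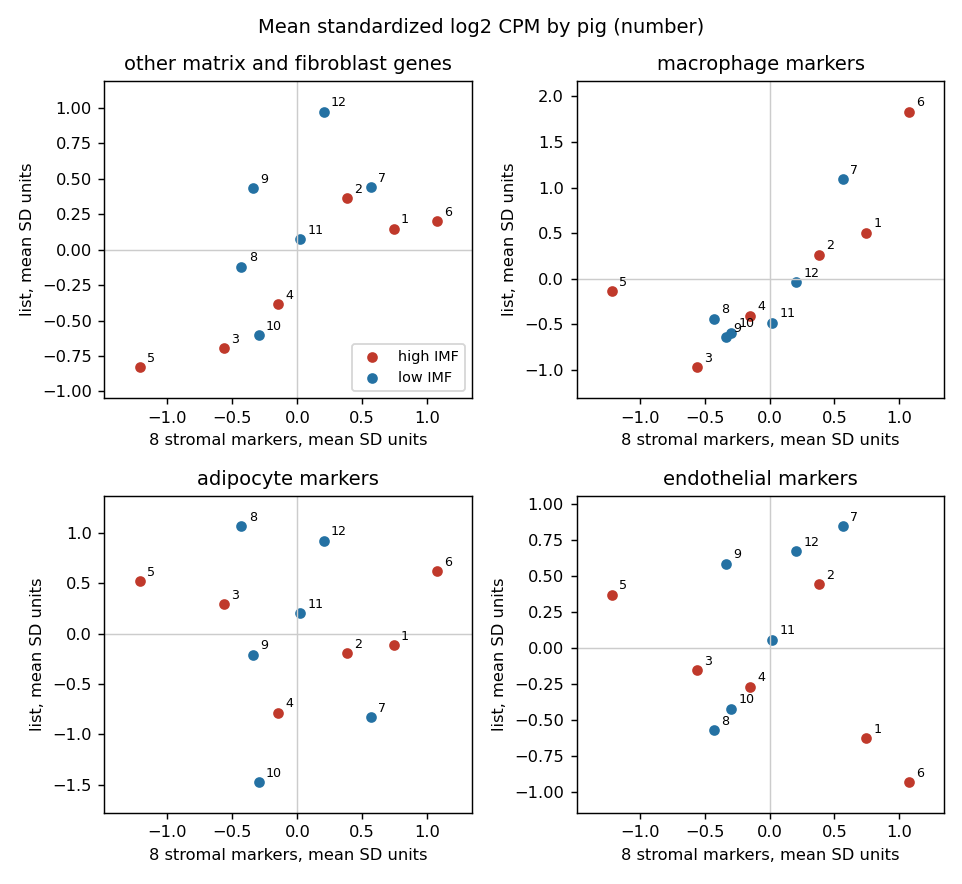
Mean standardized log2 CPM of 4 marker lists (vertical axes) against that of 8 stromal genes (horizontal axes), in SD units, for the 12 pigs (numbers; red for high IMF, blue for low IMF). Matrix genes and macrophage markers rise with the stromal genes, with r of 0.651 and 0.780 over the 12 pigs, and adipocyte and endothelial markers have r of -0.0760 and -0.206.

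Over the 12 pigs, the mean standardized level of the 8 stromal genes had a Pearson r of 0.651 (rho 0.657) with the other matrix and fibroblast genes, 0.734 (rho 0.713) with the TGF-beta genes and 0.780 (rho 0.790) with the macrophage markers. With adipocyte markers r was -0.0760, with endothelial markers -0.206 and with pericyte and smooth muscle markers -0.287. These values describe 12 libraries whose genes share depth and scaling. With single pigs left out, r with the macrophage markers ran from 0.674 without pig 6 to 0.940 without pig 5, and r with the adipocyte markers from -0.260 to 0.0688.

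Genes outside the list whose log2 CPM was most like that of the members were ranked by their mean Pearson r with the 9 members over 12 pigs. EMILIN2, a glycoprotein of elastic fibres, came first with 0.529, and FSTL1, a secreted protein of mesenchymal cells, second with 0.511. F13A1, a transglutaminase subunit found in tissue macrophages (0.491), the protease inhibitor CST3 (0.482) and the large proteoglycan VCAN (0.481) were among the first 10. FSTL1 had 202 CPM in high and 195 CPM in low IMF on average. The other 5 were GTF2A1L (0.489), NUDT1 (0.488), XKR8 (0.487), ENSSSCG00000000180 (0.486) and SH3BP2 (0.485), each with under 2 CPM on average in both groups. None of the 10 had an adjusted p under 0.815 between the groups.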

How the data were processed

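Muscle RNA of 12 pigs was measured by RNA sequencing of stranded, polyadenylated libraries, with pairs of libraries on a lane. The authors trimmed reads with Trimmomatic, aligned them to Sscrofa11.1 with HISAT2, used StringTie for known transcripts and counted with HTSeq. They deposited raw read counts per Ensembl gene and pig, without normalization; annotation release, strand option and treatment of multiply aligned reads are not given in the sources used here.

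Groups came from the sample labels. Symbols were matched by the gene name table (14857 of 25880 genes), positions and exon lengths by symbol in RefSeq (Sscrofa11.1). Counts of genes kept by filterByExpr were TMM-normalized and tested with edgeR 4.0.16 (quasi-likelihood model of group alone, leaving 10 residual degrees of freedom; R 4.3.3), adjusted over 14262 genes. A DEG needed a log2FC of 0.58 or more in size together with an adjusted p no larger than 0.05. Log2 CPM used a prior count of 2. Intervals are 95% t intervals from the quasi-likelihood F. Correlations used 100000 permutations, two-sided, or all 720 within a group. Alternatives were DESeq2 1.42.0 (Wald test, size factors), upper quartile, limma-voom (limma 3.58.1), other filters, a robust dispersion, sex or age as covariates, and pigs left out. The edgeR test was tried on simulated counts, and the permutation test on simulated normal values. From 131048805 to 178013997 counts per pig made counting error small except for DLK1. Intervals of counts cover counting error only and take each count as independent, which was not tested.

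The members, gene lists and tests were chosen with earlier results of these data known. Genes named are the members, from each other list the 3 with the smallest p (all PDGF ligands), and the 10 most like the members. Of the list genes, COL6A1, COL6A2, COL6A3, NOTCH1, JAG2, EGFL7 and CKM were named after their values were seen.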

Additional observations from a re-analysis of the deposited data

Results flagged for a closer look

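Of 20 groups examined, 10 quantities in 2 groups of 6 pigs each, 2 held a pig whose gap to the nearest other pig, divided by the range of the group, exceeded Dixon's 95% limit of 0.625 on the log2 scale. Chance gives about 1 in 20. PDGFRA in pig 6 of high IMF was at 41.9 CPM, with a gap of 0.718 of the range; the next pig of its group had 25.2 CPM. The summed level of the members in pig 7 of low IMF was 981 CPM, with a gap of 0.630 of the range. The next pig of its group, pig 12, had 842 CPM. The TMM factor of pig 7 was 0.81. Without this scaling its share of counts was 0.0795%, below the 0.0945% of pig 12. The part of the scaling in this flag was not tested.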

How the results depend on the processing

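The count of DEGs over all genes was 0 with edgeR's quasi-likelihood test, 57 with DESeq2's Wald test on the same genes and 64 with it on all genes with a count, and from 0 to 1 with single pigs left out; none of these DEGs was a member. The count of members at an unadjusted p at or under 0.05 was 1, and 0 with labelled age as a covariate and 0 without the 6 pigs whose Y chromosome counts went against the label, and from 0 to 2 with single pigs left out. Member pairs that passed the adjusted permutation p were 0 under every alternative run, while 5 had an unadjusted p at or under 0.05 over all 12 pigs. Without the 6 pigs whose Y chromosome counts went against the label, only 720 arrangements were possible. A pair could hardly pass in that run whatever its r. The log2FC of DPT turned to -0.0031 with upper quartile normalization, -0.0020 with at least 10 counts in every pig and -0.0030 with labelled sex as a covariate, and that of DLK1 to -0.11 in limma-voom. Without the 6 pigs it was -0.041 for FBN1 and -0.0026 for MFAP5. With single pigs left out, log2FC ran from -0.18 to 0.11 for PDGFRB, from -0.021 to 0.11 for FBN1, from -0.039 to 0.056 for DPT, from -0.045 to 0.088 for MFAP5 and from -0.012 to 0.83 for DLK1. PDGFRA, DCN, LUM and FBLN1 kept their direction under every alternative run. The adjusted p of PDGFRA was from 0.281 to 0.998 over its alternatives. The cause of these changes was not tested. At least 10 counts in every pig left DLK1 untested. No paired analysis was possible because the labels give the groups no shared replicate numbers.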
